A study of Mus musculus with 8 samples.

Results

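In Peyer's patches of C3H/HeJ mice (spelled C3H/Hej in the labels), 10 genes of CD8 T cells and cytotoxic lymphocytes were followed: Cd8a, Cd8b1, Gzma, Gzmb, Prf1, Nkg7, Ccl5, Itgae, Klrd1 and Ctsw. They were chosen by their levels in these same arrays, so the difference between OVA and control is given for them as a description, with no test. They are 10 of the 18193 genes that the array names alone with at least 1 probe set. Of its 45101 probe sets, 16 were annotated to exactly 1 of the 10 genes. A filter on low values left 22518 probe sets, 14 of them of these genes, and each of the 10 genes kept at least 1. Only Cd8a lost any, namely 2 of its 5.

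The mice were 6 weeks old and the labels name no genetic change, while the strain is known for a defective Tlr4. Those of the OVA groups received ovalbumin, an egg-white protein used as a food allergen, by gavage at 40 mg per kg of body weight per day for 28 days. Those of the control groups received normal saline over the same time. There were 8 mice, with 2 controls, female 7 and male 8, and 6 OVA mice, females 2 and 12 and males 1, 5, 8 and 13, where the numbers are those of the labels and pair no mice. Each sex had 1 control, so the spread between controls of 1 sex is unknown. Each array stands for 1 labelled sample, read from 100 ng of total RNA. Nothing in the labels gives a cage, a litter or the number of patches, and p-values measure only the spread between these samples.

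Each value is the intensity of a probe set, linear and normalized by the authors. The values are arbitrary units and are compared here between arrays for 1 probe set at a time, never between probe sets. All 11 B cell markers and all 12 enterocyte markers that the array names passed the filter, while 3 of 11 neuron and glia markers did. This check is given because the text on RNA extraction in the labels names a brain region of a patient, against the titles. No array held the values of another: the closest pair shared 6.7% of probe set values exactly.

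CD8 is the coreceptor that binds class I major histocompatibility molecules beside the T cell receptor. It is an alpha beta pair on conventional cytotoxic T cells and an alpha alpha pair on many intraepithelial lymphocytes, the T cells that sit between the epithelial cells of the gut. Cytotoxic cells carry granules with perforin, which opens the target cell's membrane, and granzymes, proteases that enter the target and start its death. A Peyer's patch is a group of B cell follicles with T cell areas between them, lying under a specialised epithelium in the wall of the small intestine, so a patch sample can also hold villus epithelium and its lymphocytes. In such bulk RNA, fewer cells of a type and less RNA per cell cannot be told apart.

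Gzma, Gzmb and Ccl5 were low on the same 3 arrays, female OVA 2, female OVA 12 and male OVA 8. Gzma, a tryptase of the granules, had intensities of 1104 in female control 7 and 1262 in male control 8. Its OVA values were 563 and 674 in females 2 and 12, and 1246, 1127, 585 and 1110.3 in males 1, 5, 8 and 13. Thus 3 OVA arrays lay at 46.4 to 61.1% of the control of their sex and the other 3 at 88.0 to 98.7%. The controls averaged 1183 ± 111 (SD, n = 2) and the OVA arrays 884 ± 309 (SD, n = 6). Adjusted for sex, the log2 difference of OVA minus control was -0.58 ± 0.27 (SE), on the scale of log2 of the intensity plus 4.88 used for every fitted difference here.

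Gzmb, the granzyme that cleaves after aspartate and activates caspases, stood at 315 and 358 in the female and the male control. It was 134 and 184 in OVA females 2 and 12, and 355, 323, 134 and 290.0 in OVA males 1, 5, 8 and 13. The low 3 arrays lay at 37.4 to 58.4% of the same-sex control and the others at 81.0 to 99.2%, the same division as for Gzma. The OVA arrays averaged 237 ± 98.1 (SD, n = 6) against 336 ± 30.7 (SD, n = 2) for the controls, a log2 difference of -0.70 ± 0.34 (SE).

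Ccl5, a chemokine that cytotoxic and memory T cells store and release and that recruits cells through receptors such as Ccr1 and Ccr3, followed the granzymes array by array. Its controls were 849.9 (female) and 973 (male), and its OVA values 477 and 552 in females 2 and 12 and 994, 1003, 473 and 907 in males 1, 5, 8 and 13. OVA males 1 and 5 therefore exceeded both controls, while the 3 low arrays reached 48.6 to 64.9% of their control. The log2 difference was -0.47 ± 0.28 (SE), from 912 ± 87.3 (SD, n = 2) to 734 ± 259.8 (SD, n = 6).

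**Figure D1:**
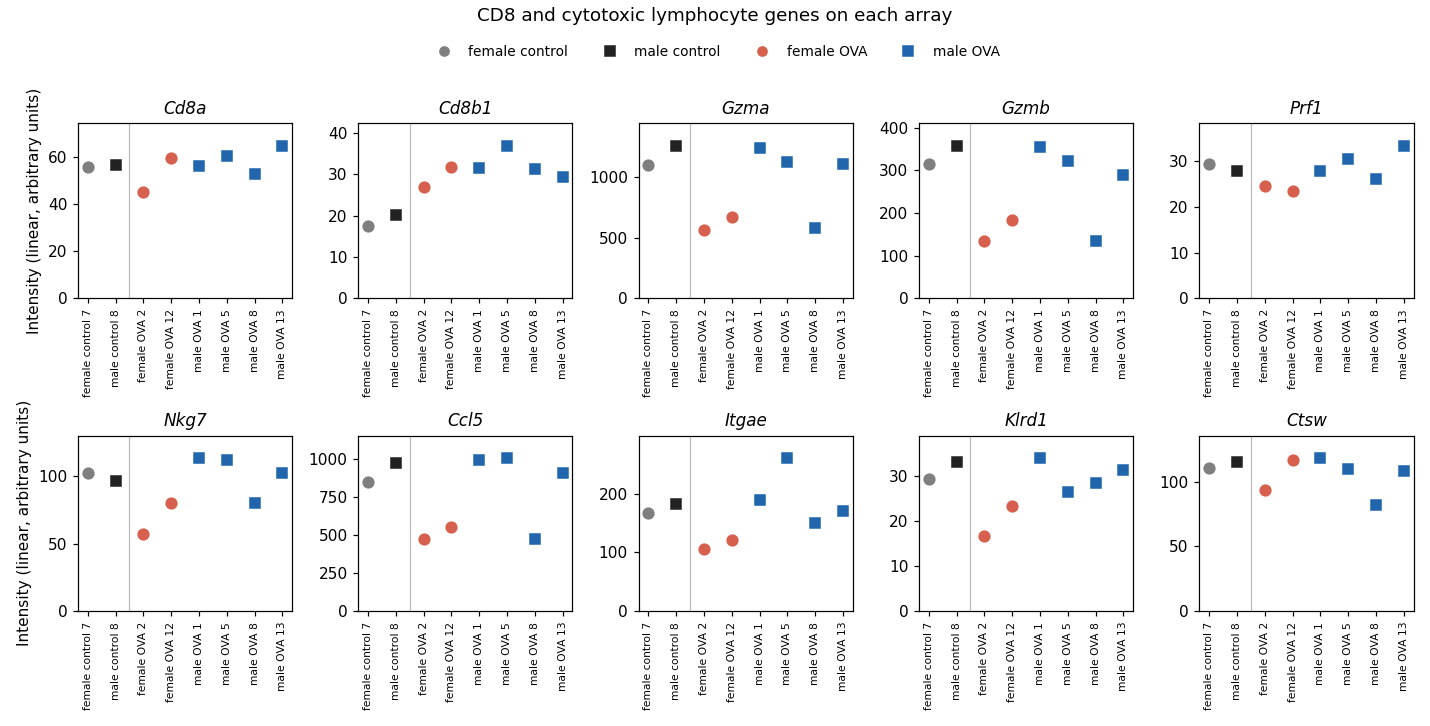
Intensity (linear, arbitrary units, axes from 0) of the brightest probe set of each of the 10 genes on each of the 8 arrays; circles are females, squares are males, greys are controls and colours are OVA. Gzma, Gzmb and Ccl5 show 3 low OVA arrays (female 2, female 12, male 8) and 3 at the level of the controls, and Cd8b1 shows all 6 OVA arrays above both controls.

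Nkg7, a membrane protein of cytotoxic granules needed for their release, showed a shallower version of that division. Its values were 102 and 96.0 in the controls, 57.3 and 79.8 in OVA females 2 and 12, and 113, 112, 79.7 and 102 in OVA males 1, 5, 8 and 13. The same 3 arrays were lowest, and the log2 difference of OVA minus control was -0.22 ± 0.20 (SE).

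Prf1, perforin itself, varied little. Its brighter probe set ran from 23.4 to 33.4 over the 8 arrays, with controls of 29.3 and 27.9, and OVA females 12 and 2 and OVA male 8 were again lowest at 23.4, 24.6 and 26.2. Its log2 difference was -0.08 ± 0.12 (SE). The dimmer Prf1 probe set, at 11.8 in female control 7 and 15.3 to 19.5 on the other arrays, gave 0.17 ± 0.15 (SE) and correlated at r = -0.16 with the brighter one over the 8 arrays, so the direction for Prf1 depends on the probe set. Ctsw, cathepsin W, a protease of cytotoxic cells, stood at 111 and 115 in the controls, at 93.7 and 117 in OVA females 2 and 12, and at 118, 109.5, 82.4 and 108 in OVA males 1, 5, 8 and 13. OVA male 8 and OVA female 2 were lowest but OVA female 12 was not low, and the log2 difference was -0.12 ± 0.15 (SE).

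Promoter sequences of RefSeq (assembly GRCm38.p6) were matched for 5 of the 10 genes: Cd8a, Gzma, Gzmb, Prf1 and Nkg7. Those of Gzma, Gzmb and Nkg7 are shown, genes that had the same 3 lowest arrays. Prf1 had them too in its brighter probe set, and its sequence is not shown. Each runs from 250 bases before the transcription start to 50 after it, 5′ to 3′ on the gene's strand. Capitals mark matches on either strand to the RUNX motif TGTGGT, which reads in reverse complement as ACCACA. In Nkg7 they also mark the T-box motif GGTGTGA.
Gzma, chr13:113100932-113101231, minus strand: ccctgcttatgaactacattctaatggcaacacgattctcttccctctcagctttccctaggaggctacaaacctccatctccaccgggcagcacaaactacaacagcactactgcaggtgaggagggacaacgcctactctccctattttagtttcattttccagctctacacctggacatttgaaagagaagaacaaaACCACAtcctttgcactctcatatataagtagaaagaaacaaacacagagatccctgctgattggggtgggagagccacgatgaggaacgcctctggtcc
Gzmb, chr14:56262285-56262584, minus strand: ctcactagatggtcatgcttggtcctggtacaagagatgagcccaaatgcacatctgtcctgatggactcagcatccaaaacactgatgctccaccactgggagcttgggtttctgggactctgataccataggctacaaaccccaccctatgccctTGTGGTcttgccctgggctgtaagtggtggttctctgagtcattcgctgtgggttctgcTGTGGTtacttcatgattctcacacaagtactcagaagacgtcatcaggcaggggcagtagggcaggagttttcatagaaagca
Nkg7, chr7:43436888-43437187, plus strand: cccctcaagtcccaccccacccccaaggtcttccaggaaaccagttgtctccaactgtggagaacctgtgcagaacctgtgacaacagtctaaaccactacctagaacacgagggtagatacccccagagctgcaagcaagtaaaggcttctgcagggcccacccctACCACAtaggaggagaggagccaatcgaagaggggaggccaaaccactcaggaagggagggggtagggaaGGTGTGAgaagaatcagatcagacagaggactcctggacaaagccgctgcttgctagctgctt

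The RUNX letters, bound by the factors Runx1 and Runx3, stood once in Gzma, 50 bases upstream of the start, and in Nkg7, 83 bases upstream. Gzmb held 2 copies, 93 and 34 bases upstream. Prf1 held 1 at 130 bases upstream and Cd8a held none, and 16.8% of the 32851 promoters of the table hold at least 1. The T-box letters, bound by factors such as Tbx21 and Eomes, occurred in Nkg7 alone among the 5, 13 bases upstream, and in 3.98% of all promoters. The ETS letters GGAAGT occurred at 108 and 198 bases upstream in Prf1 alone among the 5, and in 23.8% of all promoters. The AP-1 letters TGANTCA occurred in Gzmb alone, 58 bases upstream, against 7.81% of all promoters. The E-box letters CANCTG stood in all 5 and in 51.4% of all promoters, and could overlap other motifs. These matches describe the letters of the reference and no binding was measured.

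The genes for adhesion and recognition were low in the OVA females. Itgae encodes CD103, the alpha E integrin that with Itgb7 binds E-cadherin and holds intraepithelial lymphocytes in the epithelium. Its brighter probe set read 168 and 183 in the controls, 106 and 121 in OVA females 2 and 12, and 189, 260.1, 150.1 and 171 in OVA males 1, 5, 8 and 13. Its dimmer probe set read 125 and 133 in the controls, 78.7 and 89.4 in the same OVA females, and 121, 140.4, 102 and 133 in the OVA males in the same order. Both had OVA females 2 and 12 and OVA male 8 as the lowest 3 arrays, both had both OVA females below all other arrays, and they correlated at r = 0.92 over the 8 arrays. Their log2 differences of OVA minus control were -0.23 ± 0.21 and -0.31 ± 0.15 (SE).

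Klrd1 encodes CD94, which pairs with NKG2 chains into receptors of natural killer cells and of some CD8 T cells. It read 29.4 and 33.3 in the controls, 16.7 and 23.5 in OVA females 2 and 12, and 34.0, 26.5, 28.5 and 31.4 in OVA males 1, 5, 8 and 13. Both OVA females were lowest, and OVA male 5, not OVA male 8, came next. Its log2 difference was -0.28 ± 0.15 (SE).

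Of the coreceptor genes, Cd8b1 did not have these lowest arrays and Cd8a had them in 1 of 3 probe sets. Cd8b1, the beta chain that only alpha beta CD8 contains, read 17.6 and 20.1 in the controls, 26.9 and 31.7 in OVA females 2 and 12, and 31.6, 36.9, 31.2 and 29.2 in OVA males 1, 5, 8 and 13. All 6 OVA arrays exceeded both controls, at 145 to 184% of the control of the same sex, and the arrays low in Gzma were not set apart. The means were 18.9 ± 1.75 (SD, n = 2) and 31.3 ± 3.33 (SD, n = 6), a log2 difference of 0.58 ± 0.11 (SE), which is 1.5-fold. This was the one probe set of the 14 with no overlap between groups in that direction, where 8.36% of all 22518 tested probe sets had all OVA arrays above both controls. None of the 14 had all OVA arrays below both controls, against 5.01% of all tested.

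Cd8a, the alpha chain of both forms of CD8, had 3 probe sets past the filter that differed little between the treatments and disagreed in part. The brightest read 55.7 and 56.6 in the controls and ran from 45.2 in OVA female 2 to 64.9 in OVA male 13, a log2 difference of -0.02 ± 0.13 (SE). The next read 36.1 and 43.0 in the controls, and 31.4, 32.5, 44.5, 56.9, 31.4 and 43.0 in OVA females 2 and 12 and OVA males 1, 5, 8 and 13, and its difference was -0.07 ± 0.18 (SE). That probe set had the 3 lowest arrays of Gzma, and the other two did not. The third read 45.6 in the female control and 29.1 in the male one, with 25 and 28.7 in OVA females 2 and 12 and 51.7, 50.9, 30.5 and 45.7 in OVA males 1, 5, 8 and 13, and its difference was -0.02 ± 0.27 (SE). The 3 correlated with each other at r = 0.59 to 0.73 over the 8 arrays. The remaining 2 Cd8a probe sets were below the filter, with highest values of 11.8 and 3.97.

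Counted over the 10 genes by their brightest probe set, 9 were lower and 1 was higher in OVA than in controls, with a median log2 difference of -0.22 against 0.02 over all 11988 genes tested. The limma fit with sex as a covariate called 0 of 22518 probe sets for OVA at a Benjamini-Hochberg adjusted p under 0.05 (percent called 0), with 2524 at an unadjusted p under 0.05. The median rests on the comparison within females. It was -0.04 without female control 7, which leaves the comparison within males. It was -0.51 without male control 8, which leaves the comparison within females. Without female control 7, Nkg7, Prf1, Itgae and Cd8a turned to 0.07, 0.06, 0.04 and 0.04, which leaves 5 of the 10 genes lower in OVA. Gzma, Gzmb and Ccl5 stayed below 0 and Cd8b1 above 0 with any 1 array left out.

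Female OVA 2, female OVA 12 and male OVA 8 were the lowest 3 arrays for 6 of the 10 genes, Gzma, Gzmb, Prf1, Nkg7, Ccl5 and Itgae, and for 8 of the 14 probe sets. Among all tested probe sets 7.21% had these as the lowest 3. The 3 arrays were named after their values were seen, so the count is a description. Markers of other cell types differed on them too. Their scores, the mean log2 intensity of a marker list minus its mean over the 8 arrays, were -0.04, 0.67 and 0.64 for 11 B cell markers in OVA females 2 and 12 and OVA male 8, where the other 5 arrays ran from -0.40 to 0.05. For 11 T cell markers they were -0.16, 0.36 and 0.36 against -0.30 to 0.04. For 12 enterocyte markers, genes of the absorptive cells, they were -0.12, -0.42 and -0.27 against 0.13 to 0.19. For 12 epithelial lineage markers they were 0.09, -0.13 and -0.46 against -0.12 to 0.31, so that list did not set the 3 arrays apart.

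Low Gzma, Gzmb and Ccl5 thus went with a low enterocyte score on all 3 arrays, although 2 of the 12 enterocyte markers had these as their lowest 3. B and T cell scores were high on OVA female 12 and OVA male 8 but not on OVA female 2. With the enterocyte score subtracted on each array the count of 6 genes became 3 and the median log2 difference of OVA became 0.06. With the epithelial lineage score subtracted they became 3 and 0.10, and with the T cell score subtracted 8 and -0.51. Each subtraction moves the OVA difference of every tested probe set by the same amount. The shift of the median was therefore set by the score's own OVA difference and would be the same for any genes. The part of sample makeup in the differences was not tested.

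**Figure D2:**
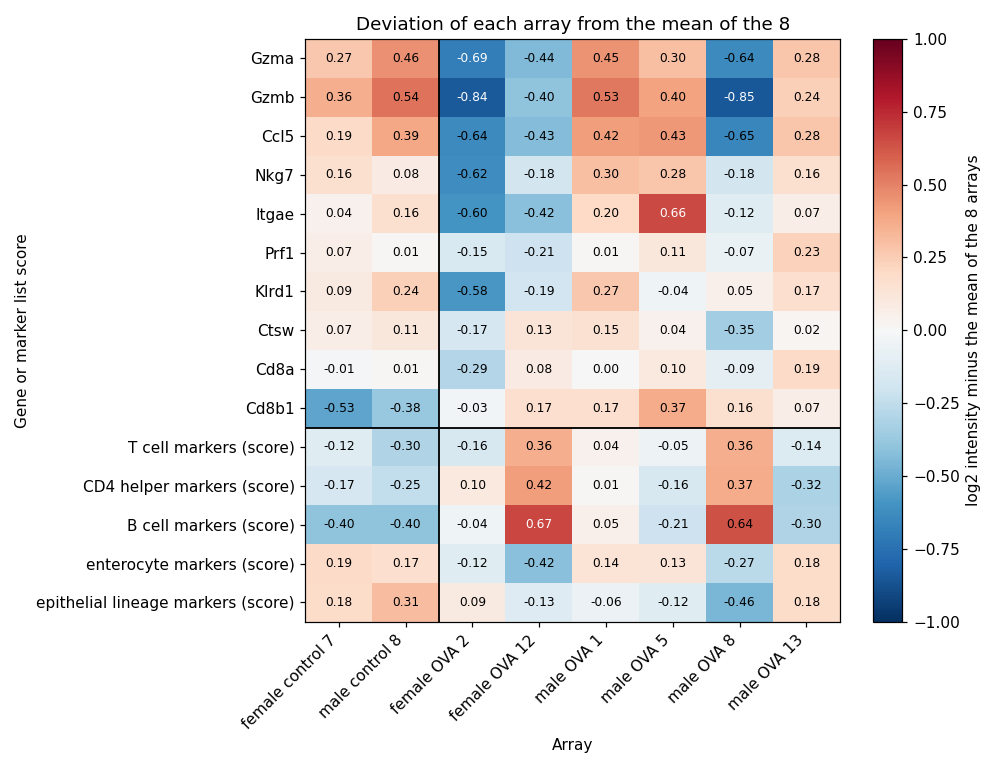
Log2 intensity of each of the 10 genes (rows above the line, brightest probe set) and of 5 marker list scores (rows below it) on each array (columns, controls left of the line), as the difference from the mean of the 8 arrays; red is higher, blue is lower, and the number is the difference. In female OVA 2 and male OVA 8 Gzmb lay at -0.84 and -0.85, and enterocyte markers were below 0 on the same 3 arrays as Gzma, Gzmb and Ccl5.

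A gene of the lower small intestine followed another order of arrays. Fabp6, the ileal bile acid binding protein, named here after its values were seen, read 2974 and 3297 in the controls, 2189 and 2828 in OVA females 2 and 12, and 1474, 21.2, 21.7 and 3163 in OVA males 1, 5, 8 and 13. It was near its floor in OVA males 5 and 8, of which OVA male 5 had Gzma, Gzmb and Ccl5 at the level of the controls. OVA male 8 was low for both Fabp6 and Gzma, while the other lowest arrays of Fabp6 were not those of Gzma. Any part of gut region in the values of Gzma was not tested.

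Sex itself was not used to choose the 10 genes, but their levels in these same arrays were. Both OVA females were among the low arrays of Gzma, Gzmb and Ccl5. The sex differences are therefore not independent of that choice and are given as a description. Of the 10, 9 had a fitted value lower in females and Ctsw had one of -0.00, whose sign turned in 9 of 18 alternatives. That of Cd8a turned to 0.01 without female OVA 2. The median log2 difference of female minus male was -0.39 against -0.01 over all genes tested. The largest differences of female minus male were -0.56 ± 0.31 (SE) for Gzmb, -0.55 ± 0.19 for Itgae, -0.53 ± 0.24 for Gzma and -0.53 ± 0.25 for Ccl5, followed by -0.40 ± 0.13 for Klrd1 and -0.37 ± 0.17 for Nkg7. Prf1 at -0.16 ± 0.11, Cd8b1 at -0.13 ± 0.10, Cd8a at -0.12 ± 0.11 and Ctsw at -0.00 ± 0.13 completed the 10.

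No sex difference of these genes passed the test. The limma fit called 12 of 22518 probe sets by sex (0.0533%) and 0 of the 14, whose adjusted p ran from 0.901 to 0.999. At an unadjusted p under 0.05 it placed 3 of the 14, both Itgae probe sets and Klrd1. Of all tested probe sets 5.41% lay under it. Because these genes were chosen by their levels in the same arrays, the count of 3 is not an independent test of sex. Both OVA females are among the 3 arrays with low enterocyte markers, and the part of this in the sex difference was not tested.

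The OVA effect was also compared between the sexes, as the male difference minus the female one. For Gzma it was 0.47 ± 0.57 (SE), for Gzmb 0.51 ± 0.72, for Ccl5 0.46 ± 0.58, for Nkg7 0.63 ± 0.35 and for Itgae 0.60 ± 0.40, each with 1 control per sex. The limma interaction fit called 0 of 22518 probe sets (percent called 0), with 1846 at an unadjusted p under 0.05, and the smallest adjusted p among the 14 was 0.523, for the third Cd8a probe set at 1.19 ± 0.38 (SE). With such standard errors an interaction of the size seen for Gzma was not detectable.

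**Figure D3:**
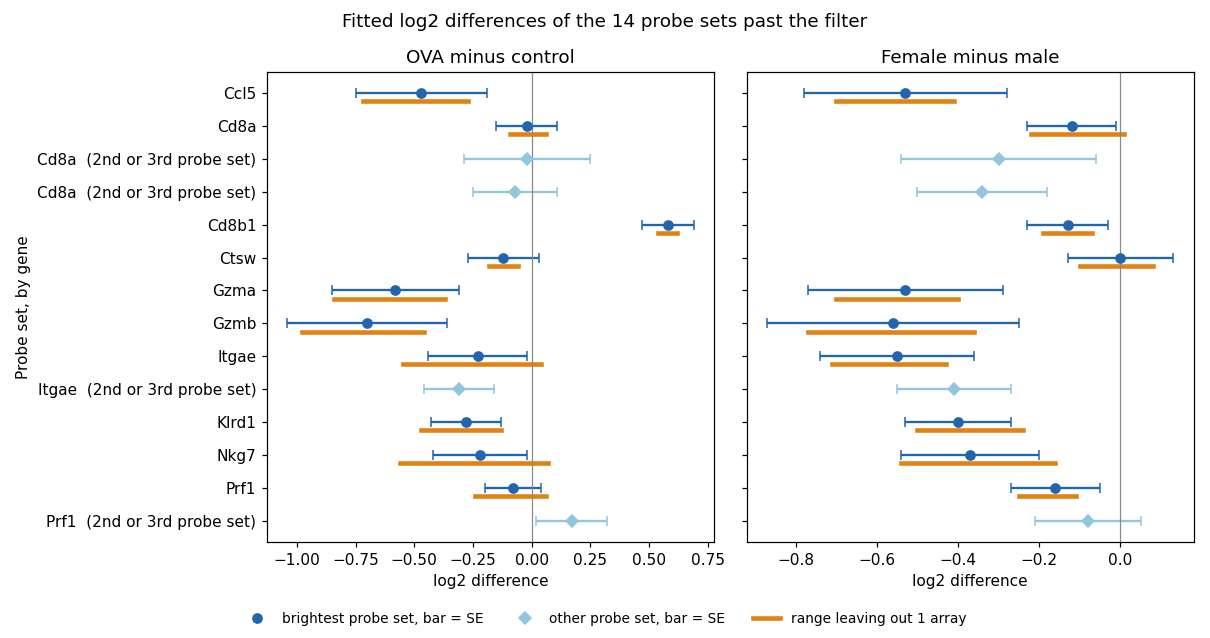
Fitted log2 differences of OVA minus control (left) and female minus male (right) for the 14 probe sets past the filter, grouped by gene; dots are the brightest probe set of a gene, diamonds its others, horizontal bars the standard error, and orange lines the range when 1 array is left out. Cd8b1 lies at 0.58 on the left, Gzma, Gzmb and Ccl5 lie between -0.70 and -0.47, and no probe set lies above 0 on the right.

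The genes were also compared with one another across the arrays. The arrays of Gzma, Gzmb and Ccl5 formed 2 separate sets, with the largest inner gap between neighbouring arrays at 0.61, 0.46 and 0.58 of the range, so no pooled correlation was tested for them. Over the other 7 genes there were 21 pairs, with r from -0.17 to 0.88 across the 8 arrays, 18 of them positive. The pair Nkg7 and Itgae had Pearson r = 0.88 (exact permutation p = 0.00193, Benjamini-Hochberg adjusted p = 0.0406, two-sided) and Spearman rho = 0.86 (exact permutation p = 0.0107, adjusted p = 0.225). It was the 1 pair past the threshold by Pearson r, and none passed by rho. Its r was 0.85 without the 2 arrays farthest from the median of Nkg7 and 0.89 over the 6 OVA arrays. Both genes were chosen by their levels in these arrays and had the same lowest arrays as Gzma, Gzmb and Ccl5. Their r can therefore reflect that division of the arrays, and the p-values cannot tell the 2 apart. The 21 pairs also followed from a gap rule set after the values were seen.

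The 1 call by Pearson r did not hold with fewer arrays. No pair passed when female control 7, male control 8, female OVA 2, male OVA 1, male OVA 8 or male OVA 13 was left out, or over the OVA arrays alone, while 2 passed without female OVA 12 and 3 without male OVA 5. Cd8b1 had r from -0.17 to 0.21 with the other 6 genes. Against the enterocyte and epithelial lineage scores 14 relations of the 7 genes were computed and none passed. The closest was Prf1 with the enterocyte score, at r = 0.83 (exact permutation p = 0.00982, adjusted p = 0.138).

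All other tested genes were ranked by Pearson r to each gene over the 8 arrays, among 11987 genes, as a description. For Nkg7 the first was Cd7 at r = 0.98, a surface protein of T and natural killer cells, followed by Uevld and Atp5j. Cd7 read 112 and 117 in the controls, 55.3 and 81.6 in OVA females 2 and 12, and 142, 134, 84.5 and 133 in OVA males 1, 5, 8 and 13. It thus had the 3 low arrays of the granzymes. For Itgae the first were Fastkd1, Sod2 and F5, each at r = 0.98. Gzmb, Ccl5 and Abl1 were nearest to Gzma, in that order. Gzma, Ccl5 and Bhlha15 were nearest to Gzmb, and Gzma, Bhlha15 and Gzmb to Ccl5. Since the arrays of Gzma, Gzmb and Ccl5 formed 2 separate sets, nearness to them can reflect that split alone. For Bhlha15, a transcription factor of secretory cells, the values were 64.8 and 66.8 in the controls, 42.6 and 48.3 in OVA females 2 and 12 and 67.3, 71.2, 43.3 and 60.9 in OVA males 1, 5, 8 and 13.

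For Prf1 the nearest were Eci1 at r = 0.98 and Vdr and Nr3c2 at r = 0.97. Vdr, the vitamin D receptor, read 797 and 795 in the controls, 523 and 409.7 in OVA females 2 and 12 and 704, 1001, 585 and 1061 in OVA males 1, 5, 8 and 13. For Klrd1 the first was Igha, the constant region of immunoglobulin A, at r = 0.95, followed by Snhg11 and B930059L03Rik. Igha read 10049 and 10227 in the controls, 7068 and 8287 in OVA females 2 and 12, and 10535, 10116, 9889 and 10288 in the OVA males. For Ctsw the first was Ffar4 at r = 0.97, then Yipf6 and Fat2. For Cd8a they were Gabarapl1, Ip6k2 and Kank2. For Cd8b1 the first was Hes6 at r = 0.98, at 162 in each control and 183 to 203 in the OVA arrays, followed by Tecpr2 and Foxk1 at r = 0.96.

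Partners of these proteins and related genes were listed separately. Among them were receptors of Ccl5, ligands of CD103 and CD8, and chains that pair with CD94 and CD103. Proteins that store or process granule contents were also listed, as was the receptor NKG2D, which is not counted as a chain of CD94. Of 14 such genes 11 had a probe set naming them alone and 8 passed the filter, 6 higher and 2 lower in OVA, with a median log2 difference of 0.06 against 0.02 over all genes. None passed the test for OVA, for sex or for the interaction. Itgb7, the beta chain that pairs with CD103, ran from 76.0 to 117 with controls of 93 and 95.1. Its difference was -0.02 ± 0.15 (SE), and it was highest in OVA male 8. Cdh1, E-cadherin and the ligand of CD103, read 665 and 656 in the controls and 538 to 698 in OVA, -0.07 ± 0.12 (SE).

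Srgn, serglycin, the proteoglycan that packs granzymes, read 2024 and 1641 in the controls and 2155, 2786, 2288, 2103, 2929 and 1895 in OVA females 2 and 12 and OVA males 1, 5, 8 and 13. It differed by 0.38 ± 0.18 (SE) and was highest on OVA male 8 and OVA female 12, 2 of the 3 arrays lowest in Gzma. Ctsc, the protease that activates granzymes, differed by 0.09 ± 0.12 (SE), and Serpinb9, an inhibitor of granzyme B, by 0.04 ± 0.25 (SE) with its highest value, 151, in OVA male 8. Ccr1, a receptor of Ccl5, read 70.7 and 59.0 in the controls and 75.8 to 103 in OVA, 0.43 ± 0.14 (SE), with all 6 OVA arrays above both controls, which 8.36% of tested probe sets share. H2-T3, the thymus leukaemia antigen that binds CD8 alpha alpha, differed by 0.04 ± 0.17 (SE). Klrk1, which encodes the receptor NKG2D, differed by 0.07 ± 0.11 (SE). Klrc1, Klrc2 and Ccr3 were below the filter, with highest values of 5.78, 6.41 and 3.72, and H2-T23 and Lck were among those not named alone by a probe set.

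Other genes of granules and killing, 20 in the list, had 11 past the filter, 7 higher and 4 lower in OVA, with a median of 0.10 and none called. The brightest were Lamp1, a granule membrane protein, at -0.01 ± 0.10 (SE), and Stxbp2, a fusion factor, at -0.13 ± 0.10 (SE). Fasl, the death ligand of cytotoxic cells, was the 1 of these 11 (9.09%) with the 3 lowest arrays of the granzymes, against 7.21% of all tested probe sets. It read 12.6 and 12.1 in the controls, 10, 9.62 and 9.20 on those 3, and 14.4 to 16.6 on the other OVA arrays. These values lie near the filter's intensity of 11.9, and Fasl is named after its values were seen. Regulators of CD8 and cytotoxic cells had 15 of 16 past the filter, 12 higher and 3 lower, with a median of 0.14 and none called. The brightest were Hopx at -0.27 ± 0.17 (SE) and Tgfbr2, a receptor chain for TGF-beta, at 0.20 ± 0.22 (SE).

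Other intraepithelial lymphocyte genes had 14 of 22 past the filter, 5 higher and 9 lower, with a median of -0.05 and none called. Ccl25, the small intestinal chemokine that attracts Ccr9-bearing lymphocytes, was the brightest at -0.12 ± 0.15 (SE). Its lowest 3 arrays were OVA male 8 at 1671, OVA female 12 at 2097 and OVA female 2 at 2336. Of these, OVA female 2 lay close to the female control at 2349 and to OVA male 1 at 2353. Of the 14 genes, 2 (14.3%) had these lowest 3 arrays, against 7.21% of all tested probe sets. Tyrobp, an adaptor of activating receptors, differed by 0.08 ± 0.14 (SE). Natural killer genes had 3 of 12 past the filter. Of these Itga2 and Ncr1, an activating receptor of natural killer cells, ran no higher than 21.6 and 23.4. For both the OVA arrays lay around the controls, at 0.13 ± 0.22 and -0.19 ± 0.21 (SE).

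T cell markers gave 11 of 11 higher in OVA, with a median of 0.27 and none called. Cd3d read 240.5 and 201 in the controls and 219 to 355 in OVA, 0.31 ± 0.21 (SE), and Cd3g 194 and 146 in the controls and 141 to 239 in OVA, 0.25 ± 0.20 (SE). Both encode chains of the T cell receptor complex. CD4 helper markers gave 7 of 8 higher with a median of 0.37, of which Cxcr5 and Icos differed by 0.50 ± 0.31 and 0.55 ± 0.20 (SE). Cxcr5 was highest in OVA female 12 and OVA male 8, at 213 and 204, the arrays with the highest B cell and T cell scores. Markers of naive and memory lymphocytes gave 6 of 6 higher with a median of 0.48, with Il7r at 0.46 ± 0.27 and Klf2 at 0.35 ± 0.26 (SE). None of these lists had a gene called.

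B cell markers gave 11 of 11 higher with a median of 0.58, of which Ms4a1 was at 0.52 ± 0.24 and Cd79b at 0.62 ± 0.29 (SE). Enterocyte markers gave 12 of 12 lower with a median of -0.24, although Fabp2 differed by -0.01 ± 0.11 and Apoa1 by -0.17 ± 0.16 (SE). Epithelial lineage markers gave 12 of 12 lower with a median of -0.31, with Krt8 at -0.23 ± 0.12 and Epcam at -0.20 ± 0.17 (SE). Markers of CD8 dendritic cells, which carry the CD8 alpha alpha form, gave 4 higher and 4 lower with a median of 0.03, with Irf8 at 0.07 ± 0.22 and Naaa at 0.15 ± 0.13 (SE). Mast cell markers had 4 of 10 past the filter, 3 higher and 1 lower, with Mcpt2 at 0.00 ± 0.54 and Mcpt1 at 0.40 ± 0.49 (SE). The 3 neuron and glia genes past the filter were all higher, with Mbp at 0.03 ± 0.10 and Aqp4 at 0.14 ± 0.14 (SE). None of these was called either, and the part of cell makeup in the values of Cd8b1 was not tested.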

How the data were processed

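Total RNA from 8 samples was read on single-colour Affymetrix mouse arrays. The authors deposited normalized intensities, 1 per probe set, linear and between 1.86 and 14749.3. MAS5 was used, per the submitters' processing notes, with no version given. The step that summarised probes was not settled, because 51.5% of probe sets (23229 of 45101) repeated a value exactly on another array. The trimmed means of the arrays (2 to 98%) ran from 64.7 to 67.8. No scan date or batch was analysed here, and precision is limited by how few arrays there are.

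Intensities were taken as log2 of the value plus 4.88, the 25th percentile of all values. After 64 control probe sets were left out, those with a mean log2 value above the median (an intensity of 11.9) were tested, 22518 in all. Fits used limma 3.58.1 in R 4.3.3 with treatment and sex as additive terms over all 8 arrays (5 residual degrees of freedom), and group means for the interaction, with Benjamini-Hochberg adjustment at 0.05. The fit was tested on simulated data. Probe sets were named from the platform annotation, by which 34945 carry 1 symbol, 932 several and 9160 none, and only those with 1 were used. A gene stands by its brightest probe set. Correlations, motif counts and permutation tests used Python 3.11.15 and SciPy 1.17.1.

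The 10 genes and the gene lists were chosen with earlier results of these data known. Named genes were the 10, their direct partners, the 2 brightest of each other list and the 3 genes most like each of the 10, and others are said to be named after their values were seen. Of 45 pairs and 40 relations to scores intended, 21 and 14 were computed, since Gzma, Gzmb, Ccl5 and the T and B cell scores split into separate sets of arrays by a gap over 0.45 of the range, a rule set after the values were seen. Alternatives were other pseudocounts, scalings, filters, variance settings, array weights, probe set rules, marker scores subtracted, the OVA arrays alone and each array left out. A listed partner gene is not reported here.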

Additional observations from a re-analysis of the deposited data

Results flagged for a closer look

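On the log2 scale, Gzma in OVA male 8 lay at 9.20 with the next OVA male at 10.12, a gap of 0.85 of the range of the 4 OVA males. Ccl5 in the same array lay at 8.90 with the next at 9.83, a gap of 0.86 of the range. The enterocyte marker score in that array lay at 10.66 with the next at 11.06, a gap of 0.90 of the range. In each the single array stood far from the other 3 of its group. Chance alone picks out about 1 in 20 groups, and 36 were examined.

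For the third Cd8a probe set the OVA effect ran in opposite directions in the sexes. Both OVA females lay below the female control (25 and 28.7 against 45.6) and all 4 OVA males above the male control (30.5 to 51.7 against 29.1), and the male effect minus the female effect was 1.19 on the log2 scale. The limma interaction test gave it an adjusted p of 0.523, and each sex had 1 control.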

How the results depend on the processing

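The direction of OVA minus control held for Gzma (-0.87 to -0.26), Gzmb (-0.99 to -0.37), Ccl5 (-0.76 to -0.15) and Cd8b1 (0.29 to 0.91) under every alternative that measured them, and no probe set was called for OVA or the interaction under any. The median over the 10 genes, -0.22, became -0.51 with T cell markers subtracted, 0.10 with epithelial lineage markers subtracted and 0.06 with enterocyte markers subtracted, and ran from -0.51 to -0.04 with 1 array left out. The count of 6 genes with the same lowest 3 arrays became 3 with epithelial lineage markers and 3 with enterocyte markers subtracted. These alternatives to that count were chosen after seeing the data, as was the enterocyte subtraction. Subtracting a score takes the same amount from every probe set of an array. Those shifts of the median thus follow from the score's own OVA difference and are not particular to these genes. The cause of the other shifts was not tested.

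By sex, 12 probe sets became 4 under the 75th percentile filter and 1 with probe sets averaged per gene, where fewer features were tested, and none of the 10 genes was called under any alternative. The sex difference of Ctsw, -0.00, turned to 0.02 with quantile normalization, 0.02 with median centring and 0.01 in the OVA arrays alone, and ran from -0.10 to 0.08 with 1 array left out. That of Cd8a ran from -0.22 to 0.01 with 1 array left out, turning without female OVA 2. The 1 pair of genes past the threshold became 0 in the OVA arrays alone, and 0 to 3 with 1 array left out. No paired analysis was possible because the replicate numbers of the labels pair no mice.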
